A study of Mus musculus with 16 samples.

Results

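The genes described here are 43 cell cycle and proliferation genes, taken as a fixed list of symbols. They comprise 14 S phase genes, which license, fuel or trigger DNA replication, 26 mitotic genes, which drive or carry out chromosome segregation, and 3 regulators of the G1 phase. All 43 symbols were found among the 24411 in the table of raw counts, and 42 passed the filter on low counts, as did 13660 genes in all. *Kif2c*, a kinesin that takes microtubules apart at the centromere, was the member that did not pass, with 1 to 17 reads per library and group means of 0.209 (WT), 0.384 (Lep(ob/ob)) and 0.143 CPM (treated mice). It enters no fold change, test or mean level below, while its reads and its promoter are counted with the mitotic members.

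RNA was sequenced from whole pancreas of 16 male C57BL6/J mice of 12 weeks of age, to ask how obesity and cholecystokinin (CCK) receptor blockade alter the organ. Lean WT mice (5), obese Lep(ob/ob) mice (7) and obese mice of that genotype on a CCK receptor inhibitor, CCKRi (4), made up the groups, each library coming from 1 mouse. Lep(ob/ob) mice lack functional leptin in every tissue from birth, so genotype and obesity cannot be told apart. Body weights matched the labels, at 24 to 32.3 g in WT and 48.6 to 57.3 g in Lep(ob/ob) mice, whereas *Lep* RNA would not show a mutation that alters the protein. All mice drank control or drug water for 6 weeks until collection, and the treated mice had proglumide at 0.1 mg/ml (2 mice) or lorglumide at 0.05 mg/ml (2 mice). Both drugs compete with CCK at its receptors, and the mice are pooled below unless stated. No WT mouse in the samples used here was given a drug. The labels say that WT mice were bred in house and Lep(ob/ob) mice purchased, whereas the study's methods say that both were purchased. The labels give 2 batches without saying which step they refer to. In batch A were WT mice 5489, 5492 and 5494 and untreated Lep(ob/ob) mice 417, 441, 447 and 472. In batch B were WT mice 58 and 59, untreated Lep(ob/ob) mice 461, 463 and 464, and every treated mouse, with 69 and 72 on proglumide and 74 and 76 on lorglumide.

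The libraries held 9.87 to 34.5 M counts, of which 49.3% to 85.0% fell on their 50 most abundant genes, and the 8 acinar markers summed to 80708 to 651340 CPM. Mice 417, 461, 463 and 69 stood apart by high adipocyte and macrophage markers, and they are given with and without below. Members were scarce transcripts in this organ. Of the 26 mitotic members, 20 had a median of under 20 reads per library, and their medians ran from 4 to 96.5 reads. The S phase medians ran from 7.5 to 185.5 reads and those of the G1 regulators reached 1654.5. Levels are given as CPM, the reads per M counts after TMM normalization, which corrects each library for the share taken by a few very abundant genes. Intervals on fold changes are 95% intervals.

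Cells that divide pass from G1 into S phase when D-type and E-type cyclins release E2F transcription factors from the retinoblastoma family, which switches on the genes of DNA replication. Late in S phase and in G2 a further wave of genes, under B-MYB and FOXM1 with the MuvB complex, supplies the kinases, cyclins and spindle proteins of mitosis. The adult pancreas divides little, and in bulk tissue its proliferation signal can come from acinar, endocrine, duct, immune or stromal cells. In these bulk libraries a change in the number of dividing cells and a change in RNA per dividing cell cannot be told apart.

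Compared per kilobase of annotated exon, the list was led in Lep(ob/ob) pancreas by the G1 regulators *Ccnd2* and *Ccnd1* and the replication gene *Pcna*. *Ccnd2*, encoding cyclin D2, was at 11 ± 2.06 CPM per kb (SD, n = 7), *Ccnd1*, encoding cyclin D1, at 6.96 ± 1.09, and *Pcna*, the sliding clamp of DNA polymerase, at 4.96 ± 0.682. *Mki67*, the most counted mitotic member, stood at 0.820 ± 0.246 CPM per kb, and the lowest mitotic member that passed the filter was *Bub1*, a spindle checkpoint kinase, at 0.0983 ± 0.0886. Levels of the G1 regulators and replication genes thus rest on many more reads per mouse than those of most mitotic genes.

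Within the promoters, S phase and mitotic members differed in the sequence elements that they held. The RefSeq table of promoters on GRCm38.p6, each with 250 bases before and 50 after a start listed there, had entries for 34 of the 43 members. Such a start can differ from the gene's start in GENCODE. The windows of *Kif2c* and *E2f1*, for example, lie wholly inside the GENCODE gene. *Kif2c* is counted with CHR letters and *E2f1* without E2F letters below. Exact letters were searched on both strands. These were TTTGAA for the cell cycle genes homology region (CHR), CCAAT for the box bound by NF-Y, and 6 words for E2F sites, namely TTTGGCGC, TTTCGCGC, TTTCCCGC, TTTGCCGC, TTTGGCGG and TTTCCCGG, of which some can overlap on opposite strands. CHR letters were in 15 of 21 mitotic promoters (71.4%) and in 1 of 12 S phase promoters (8.33%, *Mcm2*), against 17.9% of 32851 promoters of this length. CCAAT was in 17 of 21 mitotic (81.0%) and 8 of 12 S phase promoters (66.7%), against 37.4% of all. E2F letters were in 4 of 12 S phase promoters (33.3%, *Mcm3*, *Mcm5*, *Mcm6* and *Mcm7*) and in 2 of 21 mitotic ones (9.52%, *Birc5* and *Cdk1*), against 3.98% of all. A match is a description of letters and not a bound site, and genes with several starts count as having a motif when any start has it. Members are thus counted per gene, whereas the shares over all are of single promoters.

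**Figure D1:**
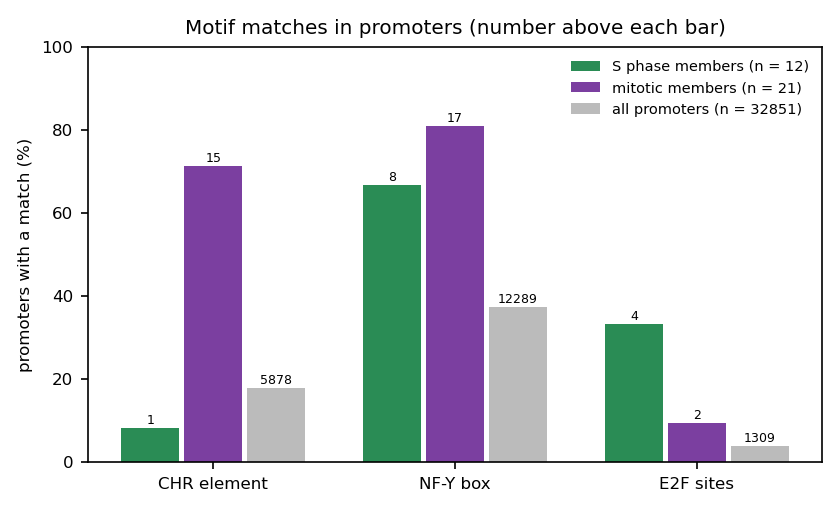
Share of promoters (%) holding each element, for S phase members, mitotic members and all promoters of the table, with the number of members or promoters above each bar. CHR letters are in 71.4% of mitotic and 8.33% of S phase promoters.

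The promoters below are shown for 2 mitotic members whose RNA was higher in Lep(ob/ob) pancreas, for 2 mitotic genes widely used as proliferation markers, for *Ccne1*, which had the largest fold change of the list, and for a replication gene with E2F letters. Capitals mark CHR letters and, in *Cdk1* and *Mcm6*, also E2F letters. Each runs 5′ to 3′ along its gene.
Prc1 (chr7:80294201-80294500, plus strand): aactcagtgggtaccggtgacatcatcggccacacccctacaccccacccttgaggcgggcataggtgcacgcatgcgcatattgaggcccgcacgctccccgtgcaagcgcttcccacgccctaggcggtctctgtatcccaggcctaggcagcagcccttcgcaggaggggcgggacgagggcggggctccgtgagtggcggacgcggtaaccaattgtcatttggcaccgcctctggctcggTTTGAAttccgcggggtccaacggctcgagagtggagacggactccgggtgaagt
Cenpf (chr1:189688037-189688336, minus strand): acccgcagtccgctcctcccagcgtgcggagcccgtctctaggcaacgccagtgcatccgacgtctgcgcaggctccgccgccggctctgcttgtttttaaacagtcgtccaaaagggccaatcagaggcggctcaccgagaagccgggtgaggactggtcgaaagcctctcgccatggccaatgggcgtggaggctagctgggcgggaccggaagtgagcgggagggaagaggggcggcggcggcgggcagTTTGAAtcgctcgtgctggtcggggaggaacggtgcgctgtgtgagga
Mki67 (chr7:135716330-135716629, minus strand): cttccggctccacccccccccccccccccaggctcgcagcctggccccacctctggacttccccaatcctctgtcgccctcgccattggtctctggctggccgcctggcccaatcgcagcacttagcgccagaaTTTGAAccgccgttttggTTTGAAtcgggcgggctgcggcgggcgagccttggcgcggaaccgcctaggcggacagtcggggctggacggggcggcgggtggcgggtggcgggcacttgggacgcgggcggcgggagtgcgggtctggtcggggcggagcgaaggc
Cdk1 (chr10:69352863-69353162, minus strand): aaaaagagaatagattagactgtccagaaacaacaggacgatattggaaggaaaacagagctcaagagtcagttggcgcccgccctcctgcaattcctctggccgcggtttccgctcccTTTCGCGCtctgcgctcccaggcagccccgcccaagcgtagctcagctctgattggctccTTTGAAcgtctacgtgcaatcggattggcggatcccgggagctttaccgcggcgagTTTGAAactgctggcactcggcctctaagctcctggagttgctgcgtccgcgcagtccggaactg
Ccne1 (chr7:38107441-38107740, minus strand): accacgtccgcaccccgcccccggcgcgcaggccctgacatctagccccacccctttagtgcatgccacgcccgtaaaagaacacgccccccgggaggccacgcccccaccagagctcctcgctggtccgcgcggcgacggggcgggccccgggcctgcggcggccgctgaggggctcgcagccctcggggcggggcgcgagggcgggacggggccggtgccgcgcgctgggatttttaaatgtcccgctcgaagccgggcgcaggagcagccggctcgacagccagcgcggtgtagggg
Mcm6 (chr1:128359656-128359955, minus strand): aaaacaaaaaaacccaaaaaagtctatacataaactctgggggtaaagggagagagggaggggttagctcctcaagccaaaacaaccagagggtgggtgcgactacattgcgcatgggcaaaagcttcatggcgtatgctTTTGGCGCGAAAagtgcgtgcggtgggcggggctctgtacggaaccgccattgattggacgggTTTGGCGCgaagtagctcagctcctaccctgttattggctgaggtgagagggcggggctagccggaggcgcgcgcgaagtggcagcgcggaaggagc

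With the start as base 1 and the base before it as -1, CHR letters began at -5 in *Prc1*, at 3 in *Cenpf*, at -116 and -98 in *Mki67* and at -71 and -15 in *Cdk1*. *Ccne1* held none of the letters searched in this window. *Mcm6* held E2F letters at -110, -106 and -47, and the first 2 of these overlap on opposite strands. *Foxm1*, *Tpx2*, *Ccna2*, *Ccne2*, *Ccnd1*, *Ccnd2*, *Aurkb*, *Mcm4* and *Kif20a* had no entry in the promoter table.

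The main comparison asked how the pancreas of untreated Lep(ob/ob) mice differed from that of lean WT mice. Cyclin E1, cyclin A2, 3 spindle and kinetochore genes and the mitotic transcription factor *Foxm1* were higher in obese pancreas, by between 1.95 and 3.09 fold, and no member was lower. By the quasi-likelihood test of edgeR, adjusted by Benjamini and Hochberg's method over 13660 genes, 6 of 42 members passed, 1 of 14 S phase and 5 of 25 mitotic. Across all genes 9.07% passed, 5.93% as higher and 3.14% as lower. At an unadjusted p under 0.05, 15 members were higher, 4 of them S phase and 11 mitotic, and none was lower, against 23.8% of all genes, 12.2% higher and 11.6% lower. The fitted log2 fold change was above 0 for 24 of 25 mitotic members, with a median of 0.77, and for 11 of 14 S phase members, with a median of 0.38. Over all genes 47.7% were above 0, with a median of -0.02. DESeq2 with batch called 9 members, all higher, where it called 12.4% of all genes, 7.8% as higher.

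**Figure D2:**
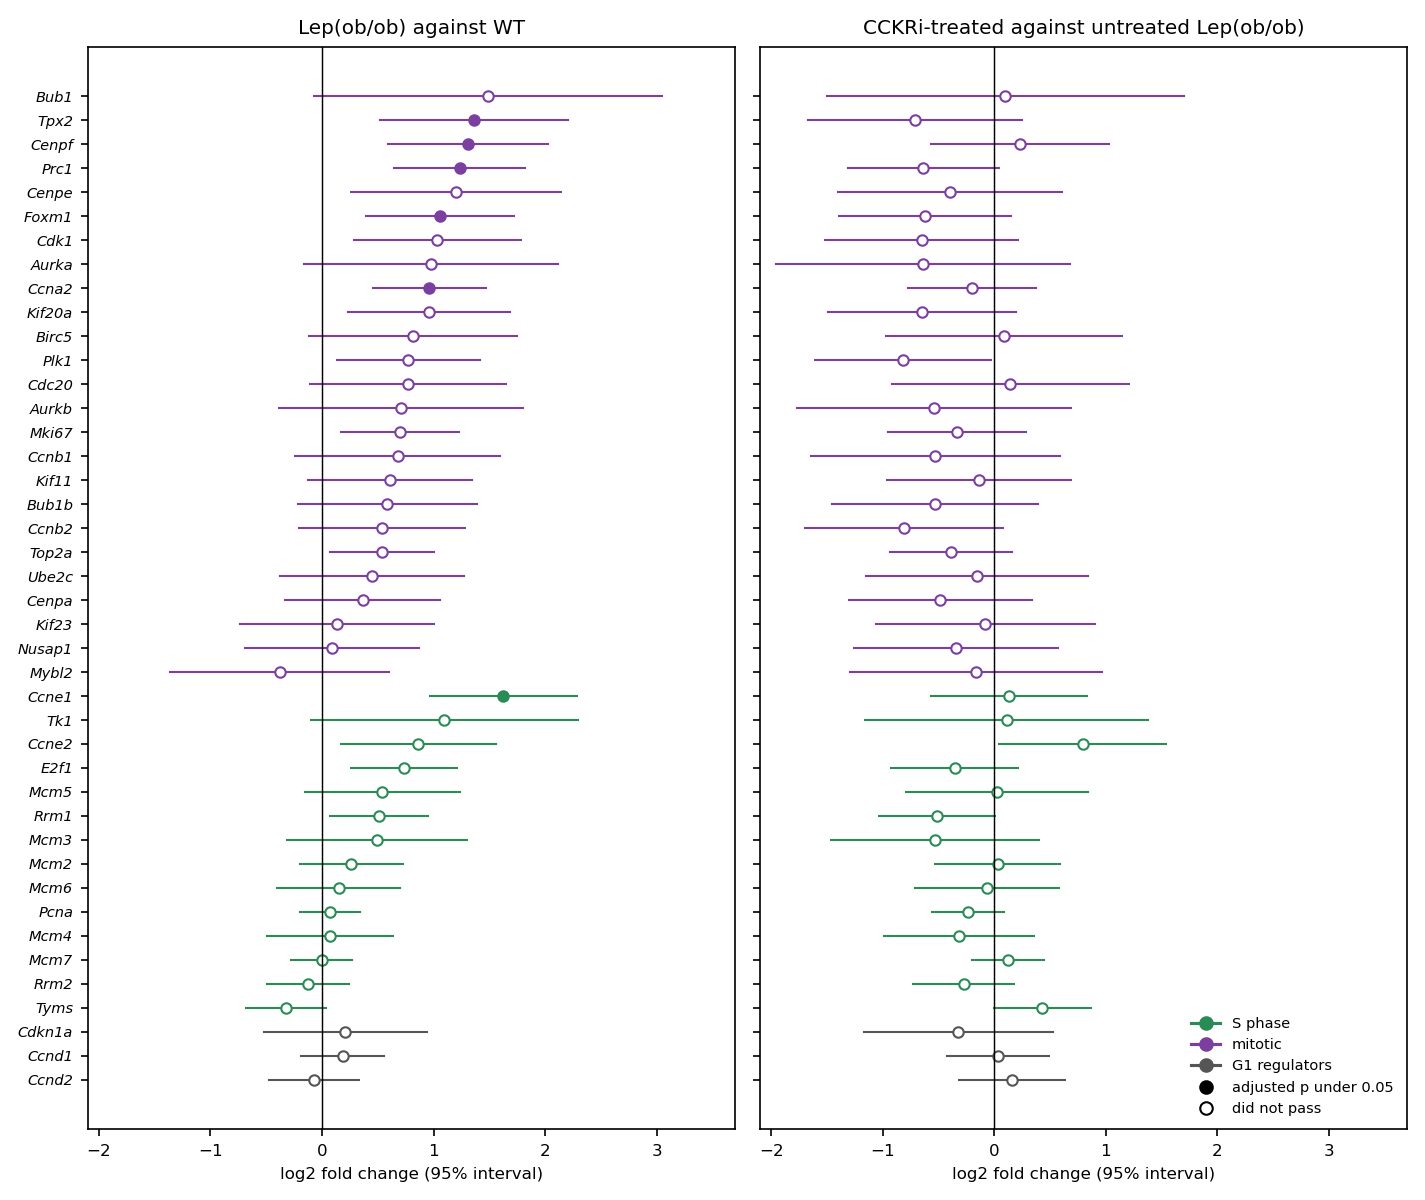
Log2 fold change with its 95% interval for the 42 members tested, in Lep(ob/ob) against WT (left) and in treated against untreated Lep(ob/ob) mice (right). Filled points passed an adjusted p of 0.05. On the left 24 of 25 mitotic members lie above 0, and on the right 21 of 25 lie below it, none of them past the threshold.

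Among the S phase genes, the G1/S cyclin gene *Ccne1* was the one that passed. *Ccne1* (ENSMUSG00000002068.16, GRCm38 chr7:38097984-38107534) encodes cyclin E1, which activates CDK2 to start replication. WT mice had 0.379, 0.602, 0.397, 0.640 and 0.183 CPM (3 to 9 reads each), and Lep(ob/ob) mice ran from 0.828 through a median of 1.42 to 1.56 CPM (11 to 40 reads). Every Lep(ob/ob) mouse lay above every WT mouse. *Ccne1* was 3.09-fold higher (log2 fold change 1.63, SE 0.31, edgeR adjusted p = 0.00342). This log2 fold change was 1.62 in batch A alone (adjusted p = 0.0113) and 1.70 in batch B alone (adjusted p = 0.236), where 3 mice faced 2.

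The partner gene *Ccne2* (GRCm38 chr4:11191351-11204779), encoding cyclin E2, was less separated. WT mice had 1.14, 0.602, 0.227, 1.01 and 1.03 CPM, and Lep(ob/ob) mice ran from 0.931 through 1.23 to 2.68 CPM. The groups overlapped, and the log2 fold change of 0.86 (interval 0.17 to 1.56) did not pass (edgeR adjusted p = 0.113). *E2f1*, the transcription factor of the G1/S genes, was at 2.20 ± 1.08 CPM (SD, n = 5) in WT and 3.5 ± 1.18 (SD, n = 7) in Lep(ob/ob). Its log2 fold change of 0.73 lay just outside the threshold by edgeR (adjusted p = 0.0512), and DESeq2 with batch gave an adjusted p of 0.0257.

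For the replication machinery no difference passed the test over both batches. *Mcm2* to *Mcm7* encode the 6 subunits of the replicative helicase, and their log2 fold changes ran from -0.003 (*Mcm7*, interval -0.27 to 0.27) to 0.54 (*Mcm5*, interval -0.15 to 1.24). *Mcm2* was at 7.13, 8.16 and 10.6 CPM in the WT mice of batch A and 5.12 and 2.43 in those of batch B. Lep(ob/ob) mice ran from 3.7 through 7.17 to 11.9 CPM, and the groups overlapped. *Pcna* was at 11.6, 12.3, 11.3, 12.0 and 9.37 CPM in WT mice and from 9.31 through 11.9 to 14.5 CPM in Lep(ob/ob) mice, which also overlapped. Its log2 fold change was 0.07 (interval -0.19 to 0.34, edgeR adjusted p = 0.772), so that a 2-fold difference lay outside the intervals of *Pcna*, *Mcm2*, *Mcm4*, *Mcm6* and *Mcm7* but not of *Mcm3* and *Mcm5*. When each batch had its own term, batch B gave the higher value for all 6 helicase genes, with 0.05 in batch A and 1.20 in batch B for *Mcm3*, 0.21 and 1.17 for *Mcm5*, -0.20 and 0.67 for *Mcm6* and -0.20 and 0.47 for *Mcm4*. None of these differences between batches passed (adjusted p from 0.445 to 0.812 by edgeR).

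None of the genes of nucleotide supply passed. *Rrm1* and *Rrm2* encode the large and the small subunit of ribonucleotide reductase, and their log2 fold changes were 0.51 (edgeR adjusted p = 0.143) and -0.13 (adjusted p = 0.710). Thymidylate synthase (*Tyms*) had a log2 fold change of -0.32 (adjusted p = 0.267), and in batch A alone each Lep(ob/ob) mouse lay below each WT mouse, as did 10.3% of all genes. Thymidine kinase 1 (*Tk1*) had 0 to 9 reads in WT and 4 to 32 in Lep(ob/ob) libraries, with a log2 fold change of 1.10 (interval -0.10 to 2.29).

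Of the mitotic genes, *Prc1* and *Ccna2* separated the genotypes most cleanly. *Prc1* (ENSMUSG00000038943.16, GRCm38 chr7:80294450-80316259) encodes the protein that bundles microtubules in the central spindle before cytokinesis, and its CHR element is printed above. WT mice had 0.455, 0.468, 0.964, 1.37 and 1.03 CPM, and Lep(ob/ob) mice ran from 1.40 through 1.96 to 2.53 CPM. The groups did not overlap, with the highest WT mouse close to the lowest Lep(ob/ob) mice. *Prc1* was 2.35-fold higher (log2 fold change 1.23, SE 0.28, edgeR adjusted p = 0.00993). For *Prc1* this value was 1.70 on the log2 scale in batch A alone (adjusted p = 0.0222) and 0.69 in batch B alone (adjusted p = 0.371), and that difference did not pass in the test between batches (adjusted p = 0.463).

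*Ccna2* (ENSMUSG00000027715.9, GRCm38 chr3:36564865-36572150) encodes cyclin A2, which pairs with CDK2 in S phase and with CDK1 in G2. WT mice had 0.834, 0.869, 1.13, 0.915 and 0.852 CPM, a narrow range, and Lep(ob/ob) mice ran from 1.40 through 1.5 to 2.45 CPM. No mouse of either group lay within the range of the other. *Ccna2* was 1.95-fold higher (log2 fold change 0.96, SE 0.24, edgeR adjusted p = 0.0169). The log2 fold change was 0.99 in batch A alone and 1.0 in batch B alone, and neither passed by itself (adjusted p = 0.0947 and 0.279). Over all mice 3 members did not overlap and were higher, *Ccne1*, *Ccna2* and *Prc1*, against 2.92% of all genes.

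*Cenpf*, *Tpx2* and *Foxm1* were higher with some overlap. *Cenpf* (GRCm38 chr1:189640606-189688086) encodes a large kinetochore protein of G2 and mitosis. Its levels were 0.683, 0.936, 1.19, 0.274 and 0.487 CPM in WT mice and ran from 0.639 through 1.98 to 2.36 CPM in Lep(ob/ob) mice. Within each batch the groups did not overlap, while mouse 464 of batch B lay below WT mice of batch A. *Cenpf* was 2.47-fold higher (log2 fold change 1.31, SE 0.34, edgeR adjusted p = 0.0226), with 1.16 in batch A alone and 1.68 in batch B alone.

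*Tpx2* (GRCm38 chr2:152847964-152895321) encodes the spindle assembly factor that activates Aurora A. WT mice had 0.303, 0.669, 0.680, 0.366 and 0.669 CPM, and Lep(ob/ob) mice ran from 0.575 through 1.28 to 2.02 CPM. Mouse 464, the lowest, was the only Lep(ob/ob) mouse within the WT range. *Tpx2* was 2.57-fold higher (log2 fold change 1.36, SE 0.40, edgeR adjusted p = 0.0406), with 1.47 in batch A alone and 1.26 in batch B alone.

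*Foxm1* (GRCm38 chr6:128362967-128376146) encodes the transcription factor of the G2/M genes. WT mice had 0.303, 0.602, 0.624, 0.640 and 0.852 CPM, and Lep(ob/ob) mice ran from 0.828 through 1.28 to 1.66 CPM. WT mouse 59 lay just above the 2 lowest Lep(ob/ob) mice, both of batch B. *Foxm1* was 2.08-fold higher (log2 fold change 1.06, SE 0.31, edgeR adjusted p = 0.0435), with 1.49 in batch A alone and 0.52 in batch B alone (adjusted p = 0.0371 and 0.608; difference between batches, adjusted p = 0.494). The calls of *Tpx2* and *Foxm1* were the least firm of the 6, passing in 6 and 7 of the 16 fits that each left out 1 mouse, whereas those of *Ccne1*, *Ccna2* and *Prc1* passed in all 16 and that of *Cenpf* in 13.

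**Figure D3:**
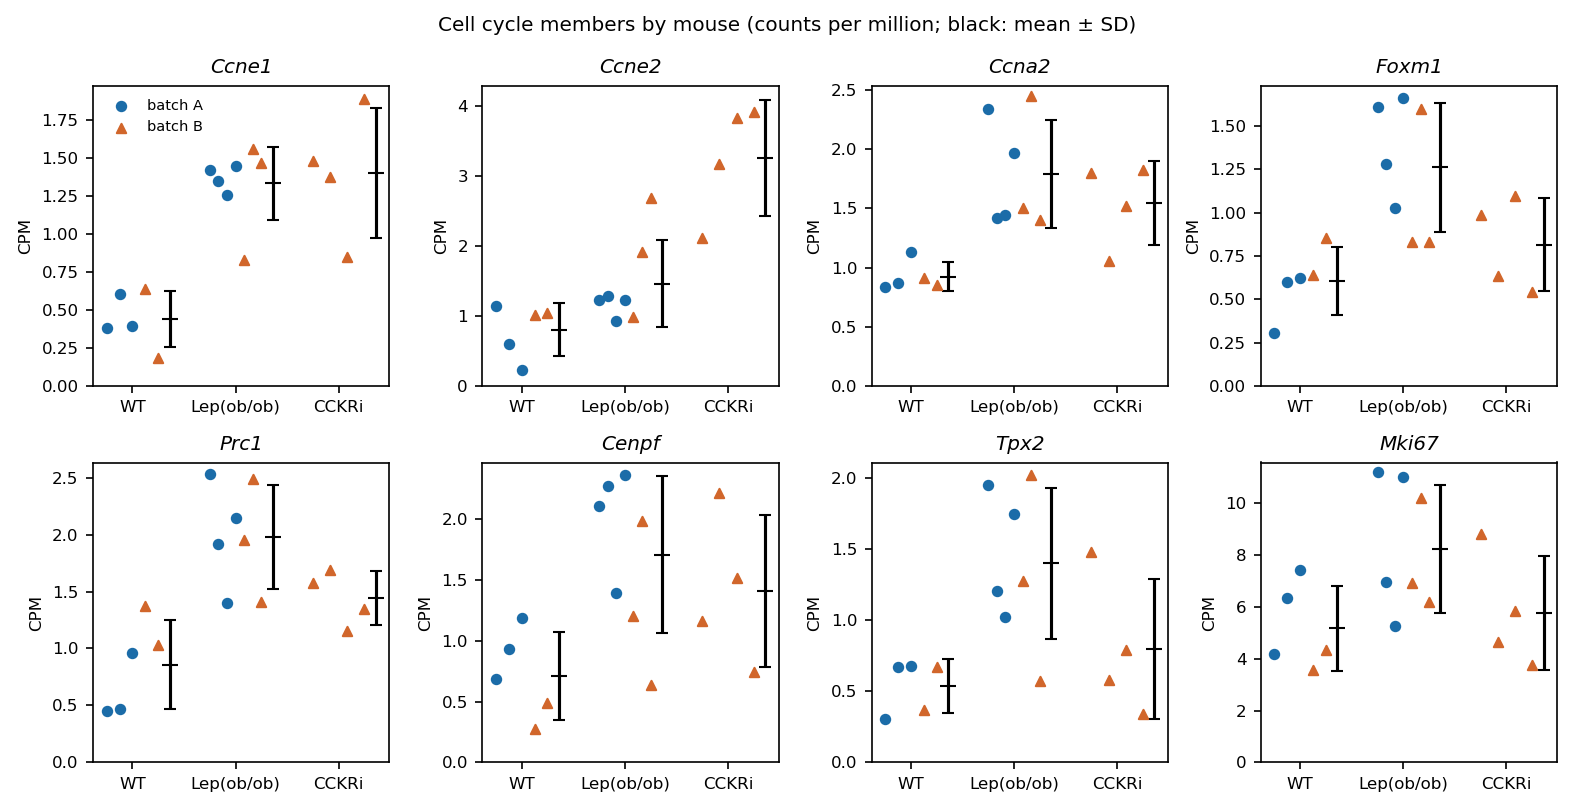
CPM in each mouse (circles, batch A; triangles, batch B) for the 7 members that passed in any comparison and for *Mki67*, with the mean and SD of each group in black. *Ccne1*, *Ccna2* and *Prc1* show no overlap between WT and Lep(ob/ob) mice, and *Ccne2* is highest in treated mice.

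The common markers of proliferation lay in the same direction without passing the test. *Mki67* encodes the Ki-67 protein that coats mitotic chromosomes. It was at 4.17, 6.35, 7.43, 3.57 and 4.32 CPM in WT mice and ran from 5.26 through 6.97 to 11.2 CPM in Lep(ob/ob) mice, so that the groups overlapped in batch A and were apart in batch B. The log2 fold change was 0.70 (interval 0.17 to 1.23, edgeR adjusted p = 0.0933). *Top2a*, the topoisomerase that untangles sister chromatids, had 3.26, 4.95, 5.10, 2.84 and 2.31 CPM in WT mice and from 3.45 through 5.04 to 6.96 CPM in Lep(ob/ob) mice. The groups overlapped, and its log2 fold change was 0.54 (interval 0.07 to 1.0, adjusted p = 0.147).

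The mitotic kinase *Cdk1* and its partner *Ccnb1*, encoding cyclin B1, also overlapped between groups. *Cdk1* had 0.758, 0.602, 1.13, 0.549 and 0.791 CPM in WT mice and from 0.639 through 1.96 to 2.26 CPM in Lep(ob/ob) mice (log2 fold change 1.03, edgeR adjusted p = 0.0808). Its Lep(ob/ob) values formed a high set of 4 mice (417, 461, 463 and 472) and a low set of 3. *Ccnb1* had 0.303, 0.267, 0.964, 0.457 and 0.304 CPM in WT mice and from 0.376 through 0.817 to 1.07 CPM in Lep(ob/ob) mice (log2 fold change 0.68, adjusted p = 0.369). For *Ccnb1*, 23.4% of its 50-base stretches also occur in transcripts of other genes, against 0 for *Ccne1*, *Ccne2* and *Ccna2*, so its reads are the less certain.

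The other mitotic members that passed the filter had log2 fold changes from -0.38 to 1.49, none with an adjusted p under 0.05. The highest of these values belonged to *Bub1* (1.49, interval -0.07 to 3.05, 0 to 5 reads in WT libraries) and *Cenpe*, a kinetochore motor (1.20, edgeR adjusted p = 0.107). *Kif20a*, a kinesin of cytokinesis, had 0.96 (adjusted p = 0.0932) and *Plk1*, encoding Polo-like kinase 1, 0.77 (adjusted p = 0.126). The value below 0 belonged to *Mybl2*, encoding B-MYB (-0.38, interval -1.36 to 0.60), of whose 50-base stretches 19.3% are shared with other genes.

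The G1 regulators showed no difference past the threshold. *Ccnd1* was at 26.2, 23.4, 21.5, 29.5 and 45.6 CPM in WT mice and from 25 through 35 to 38 CPM in Lep(ob/ob) mice. Its highest mouse of all was WT mouse 59, of batch B. The log2 fold change was 0.18 (interval -0.19 to 0.56) over both batches, with 0.52 in batch A and -0.31 in batch B when each batch had its own term. That difference between batches was the most marked of the 40 members in this test (unadjusted p = 0.0126) and did not pass adjustment (edgeR adjusted p = 0.373). For *Ccnd1* in batch A alone the adjusted p was 0.0306.

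*Ccnd2* had 146, 109, 158, 89.3 and 64.9 CPM in WT mice and from 72.6 through 98.8 to 126 CPM in Lep(ob/ob) mice, and its log2 fold change was -0.07 (interval -0.47 to 0.33). *Cdkn1a*, encoding the CDK inhibitor p21, had 18.6, 6.48, 9.58, 4.02 and 3.35 CPM in WT mice and from 5.68 through 8.03 to 12.5 CPM in Lep(ob/ob) mice. Both genes were higher in the WT mice of batch A than in those of batch B, and both overlapped between genotypes. The *Cdkn1a* log2 fold change was 0.21 (interval -0.52 to 0.94), with -0.29 in batch A and 1.08 in batch B and a difference that did not pass adjustment (adjusted p = 0.402). Across all members tested 0 of 40 differed between batches in their genotype effect by edgeR, 2 at an unadjusted p under 0.05 (*Ccnd1* and *Cdkn1a*), and 0 of 13189 genes did, 1574 of them at the unadjusted level.

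Members that separated the genotypes were counted within each batch, with no test of the lists against each other. In batch A, 9 of 25 mitotic and 2 of 14 S phase members were higher in every Lep(ob/ob) mouse than in every WT mouse, against 10.7% of all genes. The S phase member *Tyms* was lower in this way, as were 10.3% of all genes. In batch B the members higher were 11 of 25 mitotic, 3 of 14 S phase and 1 of 3 G1, against 17.2% of all genes with these smaller groups. *Ccne1*, *Ccna2*, *Prc1*, *Plk1* and *Cenpf* were separate in each batch.

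The mean log2 CPM of the mitotic members was -0.34 ± 0.24 (SD, n = 5) in WT mice and 0.33 ± 0.36 (SD, n = 7) in Lep(ob/ob) mice. WT mice ran from -0.65 to 0.01 and Lep(ob/ob) mice from -0.08 to 0.82, so that WT mouse 5494 lay within the obese range. The S phase mean was 1.44 ± 0.32 (SD, n = 5) in WT and 1.81 ± 0.24 (SD, n = 7) in Lep(ob/ob) mice. WT mice of batch A were at 1.59 to 1.73 and those of batch B at 1.07 to 1.13 for S phase, a step that the Lep(ob/ob) mice showed less (1.72 to 2.00 in batch A, 1.38 to 2.13 in batch B). These means are descriptions, with no test of their own.

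**Figure D4:**
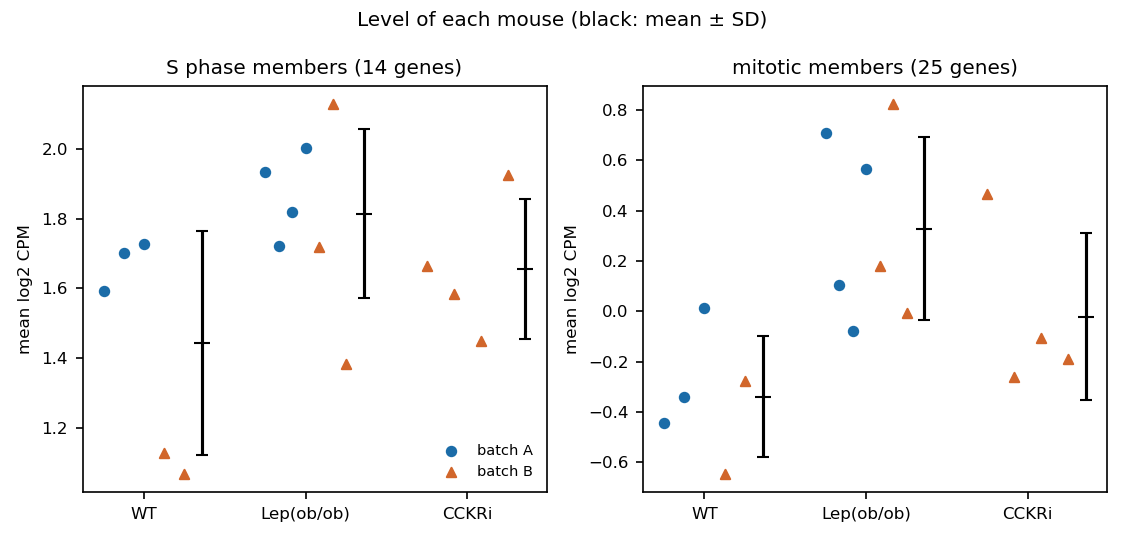
Mean log2 CPM of the 14 S phase members (left) and the 25 mitotic members (right) in each mouse, circles for batch A and triangles for batch B, with the group mean and SD in black. Mitotic levels run from -0.65 to 0.01 in WT and from -0.08 to 0.82 in Lep(ob/ob) mice, and both WT mice of batch B lie lowest for S phase.

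The mitotic level of each obese mouse was set beside its markers of other cell types. Mouse 463 was the highest Lep(ob/ob) mouse for 14 of 25 mitotic members and, within batch B, for 20 of 25. In batch A, mouse 417 was highest for 12 and mouse 472 for 11. Mouse 463 also had the highest mean log2 CPM of all mice for macrophage (6.05), lymphocyte (2.09) and adipocyte markers (7.44). It was likewise highest for endothelial (4.47) and germinal centre B cell markers (2.17), with treated mouse 69 next for the latter (1.78). Its duct level was the lowest of all (3.72). Among untreated Lep(ob/ob) mice it also had the lowest acinar (12.2) and islet (6.18) levels. Mice 417 and 472 were at 13.4 and 13.9 for acinar and at 8.25 and 8.42 for islet markers. Mouse 417, with the next highest mitotic mean (0.71), was at 4.71 for macrophage, 1.01 for lymphocyte and 5.86 for adipocyte markers, and mice 463 and 417 had the highest fibroblast levels of all (6.58 and 6.24). Mouse 461 had the next highest macrophage level after mouse 463 (5.02) and an adipocyte level of 5.82, beside a mitotic mean of 0.18. Mouse 472 had lower macrophage (3.4) and adipocyte (3.64) levels, beside a mitotic mean of 0.57, and WT mouse 5492 had a lymphocyte mean of 2.07 beside a mitotic mean of -0.34.

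The 10 macrophage markers summed to 168 to 260 CPM in WT, 98.2 to 980 in obese untreated and 126 to 365 in treated mice, and 0 of 10 passed in any comparison. Against WT, 10 of 10 macrophage markers had a log2 fold change above 0 in untreated Lep(ob/ob) mice, with a median of 0.44, as had 6 of 7 fibroblast markers, with a median of 0.40, and 0 of either list had an unadjusted p under 0.05. The lymphocyte markers that passed the filter, 10 of 14, summed to 6.27 to 46.9 CPM in WT, 2.09 to 57.4 in obese untreated and 4.19 to 38.3 in treated mice, and none passed a test. In untreated Lep(ob/ob) mice against WT, 10 of 10 lymphocyte markers had a log2 fold change below 0 (median -0.33). So had 7 of 8 duct markers (median -0.18). The T cell receptor genes *Cd3e* and *Cd3d* and the cytotoxic marker *Cd8a* did not pass the filter. The 12 islet markers summed to 1384 to 2039 CPM in WT and 3004 to 14816 in Lep(ob/ob) mice, and 9 of 12 were called higher. Of the 8 acinar markers 3 had a log2 fold change above 0 and 5 below it, with a median of -0.10. Only 1 of them was called, *Ptf1a*, as lower (log2 fold change -1.03, edgeR adjusted p = 0.00561). The duct marker *Krt7* was called higher (1.03, adjusted p = 0.0125). The 8 adipocyte markers summed to 168 to 389 CPM in WT and 204 to 3618 CPM in Lep(ob/ob) mice, with a median log2 fold change of 1.53. None of them was called higher, 5 were higher at an unadjusted p under 0.05, and the adipsin gene *Cfd* was called lower (-3.15, edgeR adjusted p = 0.00806). Without mice 417, 461, 463 and 69 the members called higher were 3, *Ccne1* (log2 fold change 1.67), *Prc1* (1.10) and *Ccne2* (1.07, adjusted p = 0.0377 by edgeR). *Ccna2*, *Cenpf*, *Tpx2* and *Foxm1* then had 0.75, 1.0, 0.96 and 0.99, with adjusted p from 0.0728 to 0.125. Of all genes 7.48% were higher in that fit. With the lymphocyte level as a covariate 13 members were called higher, and 11% of all genes. With the islet level the counts were 13 members and 15.3% of all genes, and with the adipocyte level 7 members and 8.14%. The part of these cell types in the result was not tested beyond these fits.

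**Figure D5:**
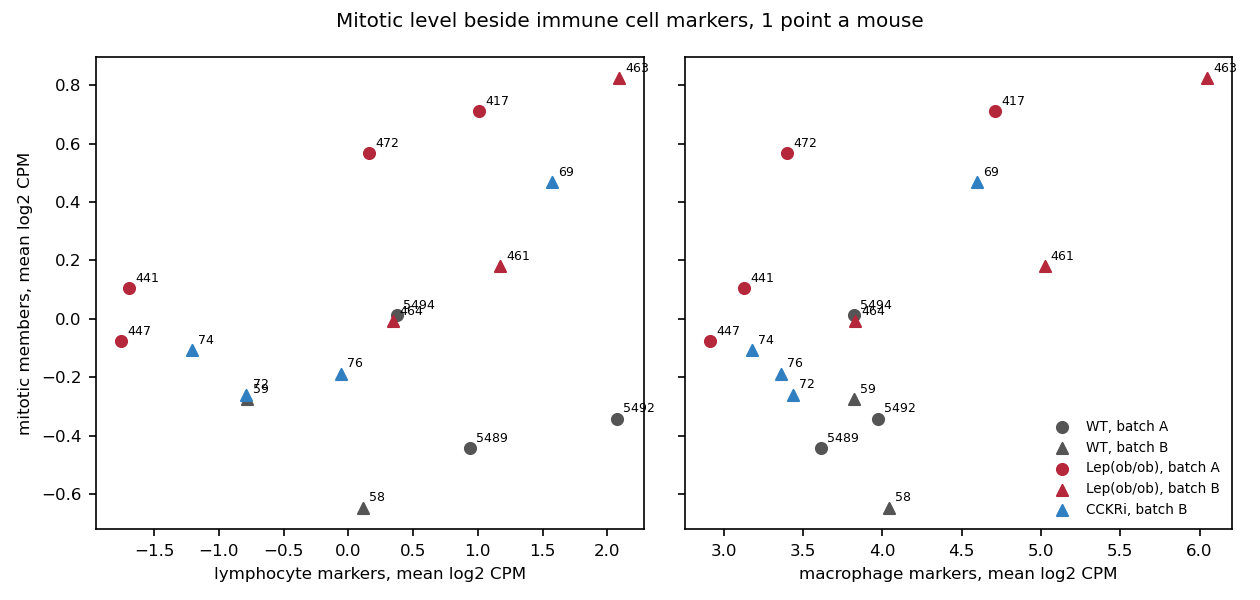
Mean log2 CPM of the 25 mitotic members against that of lymphocyte markers (left) and macrophage markers (right), 1 labelled point per mouse. Mouse 463 is highest on both axes of the right panel, and WT mouse 5492 pairs a lymphocyte level of 2.07 with a mitotic level of -0.34.

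Further mitotic, S phase and G1 genes were listed by textbook role apart from the 43. Of 58 other mitotic genes 42 passed the filter, and 3 were higher in Lep(ob/ob) mice with none lower, where 5.93% of all genes were higher and 3.14% lower. *Racgap1*, the partner of *Kif23* in the centralspindlin complex that works beside PRC1, was at 0.834, 1.14, 1.19, 0.640 and 1.40 CPM in WT mice and from 1.79 to 3.58 CPM in Lep(ob/ob) mice, without overlap (log2 fold change 1.47, SE 0.24, edgeR adjusted p = 0.000919). *Kif23* itself had a log2 fold change of 0.13 (adjusted p = 0.882). *Pbk*, a mitotic kinase, was at 1.39 (adjusted p = 0.0152) and *Ckap2*, a spindle protein, at 1.58 (adjusted p = 0.0473). Of 41 other S phase genes 37 passed the filter and 1 was higher, *Dtl*, a substrate receptor of the CUL4 ubiquitin ligase (log2 fold change 1.32, adjusted p = 0.0268). The median log2 fold change was 0.31 over the other mitotic and 0.20 over the other S phase genes, beside -0.02 over all genes.

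Of the other genes listed with the G1 regulators 2 of 29 were higher and 3 lower, beside the same shares of all genes. *E2f3*, an activating E2F (log2 fold change 0.84, edgeR adjusted p = 0.0276), and *Wee1*, the kinase that restrains CDK1 (0.49, adjusted p = 0.0272), were higher. CDK1 is the mitotic kinase named above, so *Wee1* is a G1 gene only by this list. *Cdkn1b*, encoding the CDK inhibitor p27, was lower (-0.53, SE 0.13, adjusted p = 0.0164), as was *Ccng1*, a p53 target (-0.43, adjusted p = 0.0485). *Lin37*, a subunit of the MuvB complex that represses cell cycle genes in resting cells, was at 12.8 to 19.9 CPM in WT and 4.47 to 11.4 CPM in Lep(ob/ob) mice, without overlap (log2 fold change -1.05, SE 0.17, adjusted p = 0.00110).

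The effect of CCK receptor blockade was read by comparing treated with untreated Lep(ob/ob) mice, with batch in the model because treated mice were all in batch B. No member was called in either direction by edgeR, as was the case for nearly all genes, of which 0.0586% passed, 0.0293% as higher and 0.0293% as lower. At an unadjusted p under 0.05, 1 member was higher (*Ccne2*) and 1 lower (*Plk1*), against 14.3% of all genes, 7.54% higher and 6.74% lower, and DESeq2 with batch called 0 of the 16 members and 0.945% of all genes to which it gave an adjusted p. It gave none to 26 members of low counts, among them all mitotic members but *Mki67* and *Top2a*. The fitted log2 fold change was below 0 for 21 of 25 mitotic members, with a median of -0.40, and for 7 of 14 S phase members, with a median of -0.02. Over all genes 48.8% were above 0, with a median of -0.01. This comparison shares its untreated mice with the one above, so their values are not independent.

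*Plk1*, singled out after its values were seen, was at 0.449, 0.211, 0.608 and 0.202 CPM in treated mice and from 0.527 through 0.745 to 1.05 CPM in untreated ones, on 3 to 10 and 7 to 26 reads. Mouse 74 alone of the treated mice reached the untreated range. The log2 fold change was -0.82 (interval -1.60 to -0.03, edgeR adjusted p = 0.341), and 6.56% of its 50-base stretches are shared with other genes. Within batch B 1 mitotic member lay lower in every treated mouse than in every untreated one, *Ccnb2*, encoding cyclin B2, at -0.81 (adjusted p = 0.382), against 3.57% of all genes.

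The 6 members higher in obesity had no shared direction on treatment. *Prc1* was at 1.57, 1.69, 1.15 and 1.35 CPM in treated mice, with 2 of them below and 2 within the untreated range of 1.40 to 2.53 (log2 fold change -0.63, interval -1.31 to 0.04, edgeR adjusted p = 0.372). *Foxm1* was at 0.987, 0.634, 1.09 and 0.539 CPM (-0.62, interval -1.39 to 0.15). *Tpx2* was at 1.48, 0.581, 0.790 and 0.337 CPM (-0.71, interval -1.67 to 0.25). For *Foxm1* 2 and for *Tpx2* 1 of the treated mice lay below all untreated ones.

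*Ccna2* was at 1.79, 1.06, 1.52 and 1.82 CPM in treated mice (-0.20, interval -0.78 to 0.37) and *Cenpf* at 1.17, 2.22, 1.52 and 0.742 CPM (0.23, interval -0.57 to 1.03). *Ccne1* was at 1.48, 1.37, 0.851 and 1.89 CPM, spread over the untreated range and past it (0.13, interval -0.57 to 0.83). Each of these 3 intervals includes 0.

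*Ccne2* was at 2.11, 3.17, 3.83 and 3.91 CPM in treated mice, and from 0.931 to 2.68 CPM in untreated ones. Of the untreated mice only 464, of batch B, lay above the lowest treated mouse. The log2 fold change was 0.79 (SE 0.35, interval 0.04 to 1.54) and did not pass (edgeR adjusted p = 0.335). Untreated mice of batch B had 0.978, 1.91 and 2.68 CPM against 0.931 to 1.28 in batch A, so a fit without batch gives a larger value, 1.14 with an adjusted p of 0.018 by DESeq2.

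The marker genes of proliferation were lower in the fit without passing. *Mki67* was at 8.80, 4.65, 5.83 and 3.77 CPM in treated mice (log2 fold change -0.33, interval -0.95 to 0.29, edgeR adjusted p = 0.592), and *Top2a* at 4.44, 3.06, 3.34 and 3.30 CPM (-0.39, interval -0.94 to 0.16). *Cdk1* was at 0.808, 0.792, 0.972 and 1.42 CPM (-0.65, interval -1.52 to 0.22) and *Ccnb1* at 0.538, 0.634, 0.0608 and 0.404 CPM (-0.53, interval -1.64 to 0.59). Mouse 69, the treated mouse rich in adipocyte and macrophage markers, was the highest of the 4 for *Mki67*, *Top2a* and *Tpx2* and for 14 of 25 mitotic members in all. It had the lowest mean log2 CPM of the 4 for acinar (11.3) and islet (5.25) markers. The macrophage markers had log2 fold changes below 0 in 10 of 10 genes, with a median of -1.22, and the fibroblast markers in 7 of 7, with a median of -0.96, and 0 of either list passed adjustment. At an unadjusted p under 0.05, 9 of 10 macrophage and 6 of 7 fibroblast markers were lower, beside 1 of 25 mitotic members. Log2 fold changes were also below 0 for 7 of 8 acinar (median -0.59), 10 of 10 lymphocyte (-0.51), 7 of 7 endothelial (-0.24) and 7 of 8 adipocyte markers (-0.38) and above 0 for 12 of 12 islet markers (0.45), with 0 called in any of these lists. In the fits with lymphocyte, islet or adipocyte levels as covariates, or without the mice high in non-exocrine markers, no member was called in this comparison. The main fit called none either, so these fits cannot show a part of these cell types. Macrophage and fibroblast levels were not used as covariates. The part of these cell types in the mitotic values was not tested.

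Of the replication and G1 genes none passed between treated and untreated mice. *Mcm2* was at 4.04, 4.33, 4.62 and 6.88 CPM in treated mice (log2 fold change 0.03, interval -0.53 to 0.59), and *Pcna* at 10.4, 8.77, 9.42 and 12.6 CPM (-0.23, interval -0.56 to 0.09). *Ccnd1* was at 26.7, 38.4, 40.7 and 41.3 CPM (0.03, interval -0.42 to 0.49) and *Ccnd2* at 126, 74.0, 90.9 and 106 CPM (0.16, interval -0.32 to 0.63). *Cdkn1a* was at 9.02, 3.17, 3.71 and 5.12 CPM (-0.32, interval -1.17 to 0.53). All of these ranges overlapped with those of untreated mice, and 2-fold differences lay outside the intervals of *Mcm2*, *Pcna*, *Ccnd1* and *Ccnd2* and within that of *Cdkn1a*. The other log2 fold changes of replication and nucleotide genes ran from -0.53 (*Mcm3*, interval -1.47 to 0.40) to 0.43 (*Tyms*, interval -0.003 to 0.87, adjusted p = 0.354 by edgeR), with *Rrm1* at -0.51 (interval -1.03 to 0.01, adjusted p = 0.357).

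Between the drugs, 0 of 42 members differed by edgeR, with 2 at an unadjusted p under 0.05, and 0 of 14381 genes did, 965 of them at the unadjusted level. The 2 members were *Rrm2*, lower with proglumide than with lorglumide (log2 difference -0.77, interval -1.30 to -0.24, adjusted p = 0.686), and *Bub1b*, a checkpoint kinase, higher with it (1.38, interval 0.17 to 2.60, adjusted p = 0.686). The drugs were given at different doses to 2 mice each, so this is not a comparison at a matched dose.

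Treated Lep(ob/ob) mice were last set against WT mice, sharing the mice of both earlier comparisons. Both E-type cyclins were higher, 2 of 42 members, and none was lower, where 5.57% of all genes passed, 4.22% as higher and 1.35% as lower. *Ccne1* was 3.38-fold higher (log2 fold change 1.76, SE 0.39, edgeR adjusted p = 0.0108) and *Ccne2* 3.16-fold (1.66, SE 0.40, adjusted p = 0.0185). Neither passed in batch B alone, which holds all treated mice and 2 WT mice (1.84, adjusted p = 0.288, and 1.67, adjusted p = 0.191), nor with only these 2 groups in the model (adjusted p = 0.112 and 0.107) or with proglumide mice alone (0.0511 and 0.190). With the islet level as a covariate neither passed (1.71, adjusted p = 0.0508, and 1.01, adjusted p = 0.219). Over all fits run the log2 fold change ran from 1.43 to 2.06 for *Ccne1* and from 1.01 to 2.03 for *Ccne2*. The 12 islet markers summed to 1697 to 16607 CPM in treated mice, and 10 of 12 were called higher than in WT, with a median log2 fold change of 2.68. Of the duct markers *Krt7* was called higher (1.23) and *Krt19* lower (-1.15). The macrophage and lymphocyte markers had values below 0 in 10 of 10 genes each, with 0 called. So had 8 of 8 acinar (median -0.81), 7 of 7 fibroblast (-0.67) and 7 of 7 endothelial markers (-0.32), with 0 called by edgeR. Adipocyte markers were above 0 in 7 of 8 genes (1.12), with 1 called lower. Every treated mouse was above every WT mouse for *Ccne1* and *Ccne2*, and also for *Bub1*, and 6.27% of all genes were apart in this direction. *Cenpf* lay just outside the threshold by edgeR (1.54, adjusted p = 0.0514) and inside it by DESeq2 with batch (adjusted p = 0.0239), and *Ccna2* had 0.76 (adjusted p = 0.194).

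The mitotic mean log2 CPM of treated mice was -0.02 ± 0.33 (SD, n = 4), between those of the other groups, with mouse 69 at 0.47 and the other 3 between -0.26 and -0.11. For S phase the treated mean was 1.66 ± 0.20 (SD, n = 4). Of 25 mitotic members 20 had a log2 fold change above 0 against WT, with a median of 0.34, and of 14 S phase members 9 did, with a median of 0.11, beside 47.2% and -0.02 over all genes. Of the other cell cycle genes, *Racgap1* was higher (1.14, edgeR adjusted p = 0.0300) and *Lin37* lower (-1.05, adjusted p = 0.00934) in treated than in WT mice.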

How the data were processed

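Bulk RNA-seq of polyA RNA from whole pancreas was analysed for 16 mice in 3 groups taken from the labels. The authors deposited raw counts of reads per gene symbol. Per the submitters' processing notes and the study's methods, reads were trimmed with Trim Galore 0.6.7 and cutadapt 3.5 and aligned to mm10 with STAR 2.7.9. The libraries were strand specific. The read counter, its strand setting and its annotation are not given in the sources used here, and reads of genes with near-identical stretches could be split or lost. A second deposited table of normalized counts and the DESeq2 comparisons of the study were not used here.

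Counts were tested with edgeR 4.0.16 (limma 3.58.1, R 4.3.3), using TMM normalization, filterByExpr, all 3 groups and batch in 1 quasi-likelihood model, and Benjamini-Hochberg adjustment over 13660 genes. Adjusted p values are of this test unless DESeq2 (1.42.0) is named. CPM are TMM scaled, and log2 CPM used a prior count of 2. Separate models held the genotype by batch term and the drugs. The scripts were tested on simulated data. Python 3.11.15, pandas 2.3.3 and matplotlib 3.10.9 gave levels, overlaps and plots. Alternatives were no batch term, DESeq2 with and without batch, RLE, leaving out the 50 most counted genes, no filter, at least 10 reads in every library, 2 groups only, each batch or drug alone, a log2 fold change of at least 1, marker levels as covariates, leaving out 4 mice with high non-exocrine markers, and leaving out each mouse. Positions and exon lengths come from GENCODE on GRCm38, and a stretch of 50 bases is shared when a transcript of another gene holds it. Values in every WT and treated mouse are given for members called in any comparison and for *Mki67*, *Top2a*, *Cdk1*, *Ccnb1*, *Mcm2*, *Pcna*, *Ccnd1*, *Ccnd2* and *Cdkn1a*. For untreated Lep(ob/ob) mice their lowest, median and highest values are given. Of other cell cycle genes up to 5 called per list and comparison are named. The members and lists were chosen with earlier results of these data known. Mice are separate animals.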

Additional observations from a re-analysis of the deposited data

Results flagged for a closer look

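Of 126 groups of mice for a member gene, 2 held a mouse far from the rest of its group by Dixon's test on log2 CPM. Chance gives about 1 in 20, or 6.3 groups, so that the number flagged is below the one chance gives. *Ccne1* in Lep(ob/ob) was low in mouse 461, at 0.828 CPM (11 reads) against 1.26 to 1.56 CPM in the other 6. On the log2 scale the gap was 0.655 of the group's range. Without this mouse *Ccne1* remained called against WT. *Ccnd1* in treated mice was low in mouse 69, at 26.7 CPM (595 reads) against 38.4 to 41.3 CPM in the other 3. Its gap on the log2 scale was 0.838 of the range.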

How the results depend on the processing

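In Lep(ob/ob) against WT the 6 members called higher became 3 without the batch term, 2 with at least 10 reads in every library (*Ccna2* and *E2f1* of 16 members tested, which leave out the other 5 of the 6), 0 in batch B alone (10 at an unadjusted p under 0.05, and 3 of all genes called higher), 3 without the 4 mice with high non-exocrine markers, and 13 with the lymphocyte or with the islet level as a covariate. Leaving out each mouse gave 3 to 10, with 3 without WT mouse 5489 or 58 and 10 without Lep(ob/ob) mouse 464. DESeq2 with batch gave 9 and RLE 7. The islet covariate also gave 1 member lower (*Rrm2*), where leaving out each mouse gave 0 to 0. For treated against untreated mice, DESeq2 without batch gave 1 higher (*Ccne2*) and 2 lower (*E2f1* and *Plk1*), and leaving out each mouse gave 0 to 0 in either direction. For treated against WT the 2 members called higher became 0 with only these 2 groups, in batch B alone and with proglumide mice alone, were not tested with at least 10 reads (0 called), and did not pass with the islet covariate, which gave 1 other higher (*Cenpe*) and 1 lower (*Rrm2*). Leaving out each mouse gave 1 to 3, with 1 without WT mouse 58 or 59 or treated mouse 74. The cause was not tested, beyond the fewer genes or mice that the filter, batch and drug fits hold by construction. No member was called in the opposite direction under any alternative, and the sign was kept under all of them for 30 of 42 members in Lep(ob/ob) against WT, 15 in treated against untreated and 17 in treated against WT. Normalization without the 50 most abundant genes, which changes the total the reads are divided by, moved S phase means to 3.41, 3.82 and 3.61 and mitotic means to 1.63, 2.33 and 1.94 log2 CPM in WT, Lep(ob/ob) and treated mice. A prior count of 0.5 moved the mitotic mean of WT to -0.58. No paired analysis was possible because the mouse numbers of the labels differ in every group.

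Depth limits the mitotic genes most. The median was under 20 reads in 20 of 26, and treated mice, all of batch B, are compared with mice of batch A only through the batch term.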
